A study of Danio rerio with 15 samples.

Results

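Skeletal muscle of all 7 double diet zebrafish was compared with that of all 8 standard diet zebrafish, with genotype as an additive term, so that the comparison used all 15 libraries of the series. Only effects with the same sign in both genotypes are reported as shared. The fish were females of the scaf1 Δ1 line, which carries a deletion made by genome editing and was crossed to AB fish. The 4 groups were scaf1+/+ on standard diet (4 fish), scaf1-/- on standard diet (4 fish), scaf1+/+ on double diet (3 fish) and scaf1-/- on double diet (4 fish). All were adults held on their diet for 6 weeks. The labels describe the standard diet as 3 feeds of gemma-300 per day and the double diet as 5, at 13 fish per tank of 2 l. The study's methods give a start at 7 months of age and, unlike the labels, 10 fish per tank. On weekdays they give 2 or 4 dry feeds of 15 mg plus 1 feed of artemia, as many feeds as in the labels. The tank of each fish is not given in the sources used here, so a tank and a diet cannot be told apart. The p-values below measure the spread between these fish.

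Skeletal muscle is the largest tissue of the adult zebrafish and takes up much of the amino acid, glucose and fat that a meal supplies. Well fed muscle is known to build contractile protein and store fuel, whereas fasted muscle breaks protein down and burns fat. Scaf1 joins respiratory complexes III and IV into a supercomplex in the inner mitochondrial membrane, and the question of the comparison was which muscle transcripts differ with the feeding regime irrespective of Scaf1. The deposited values are estimated counts for 57775 Ensembl transcripts, identified by accession alone. No source used here paired these accessions with genes, so results are given per transcript, muscle markers and scaf1 itself were not examined, and at most 2 accessions are printed in each direction.

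Some libraries stood apart before any test. The library of scaf1+/+ standard diet fish C held 4045333 counts and detected 15655 transcripts, whereas the other 14 libraries held between 11671308 and 15844496 counts and detected between 27748 and 35800. The standard diet fish marked B and C also differed from the other standard diet fish. In scaf1-/- muscle, the 100 most abundant transcripts took 64.14% and 66.24% of the counts in standard diet fish B and C, above all 4 double diet fish of that genotype (51.94% to 63.39%), and 40.41% and 46.45% in standard diet fish 6 and A. In scaf1+/+ muscle, the same share was 53.51% and 57.77% in standard diet fish B and C, within the 42.21% to 58.44% of the double diet fish, and 36.52% and 31.26% in standard diet fish 6 and 7. A double diet fish stood apart as well. In log2 CPM, scaf1+/+ double diet fish 2 correlated more closely with standard diet fish 6, 7 and A (mean r = 0.845) than with the other double diet fish (mean r = 0.7953). Every other double diet fish was closer to double diet fish, but so were standard diet fish B and C of both genotypes. In scaf1-/- fish B and C the mean r was 0.8134 and 0.8041 with double diet fish. It was 0.6671 and 0.6663 with standard diet fish 6, 7 and A. In scaf1+/+ fish B and C it was 0.8244 and 0.6786 with double diet fish, against 0.8154 and 0.5339. The share of the 100 most abundant transcripts was 6.73 percentage points higher on double diet in scaf1+/+ and 4.03 higher in scaf1-/- fish, a mean of 5.38. An exact permutation test of diet within genotype (two-sided, all arrangements, 3 quantities tested) gave p = 0.323, adjusted p = 0.485. Without scaf1+/+ standard diet fish C the differences were 11.07 and 4.03 points (exact p = 0.18, adjusted p = 0.224). The difference in detected transcripts, double minus standard diet, had opposite signs in the 2 genotypes, 2725 in scaf1+/+ and -1509 in scaf1-/- fish (exact p = 0.947, adjusted p = 0.947). It was -2088 and -1509 without that shallow library, which did not pass (exact p = 0.147, adjusted p = 0.224). Without standard diet fish B and C of both genotypes, the detected transcripts differed by -2794 in scaf1+/+ and -5174 in scaf1-/- fish (exact p = 0.00667, adjusted p = 0.02), and the share of the 100 most abundant by 17.61 and 14.9 points (exact p = 0.0133, adjusted p = 0.02). Fish B and C were set apart by this kind of value, so these last p-values are no independent test of diet.

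No transcript passed the test of a shared diet effect. By edgeR's quasi-likelihood test with Benjamini-Hochberg adjustment, 0 of 26970 transcripts (0.00%) had an adjusted p under 0.05 with a log2 difference over 1 in size and the same sign in both genotypes. The smallest adjusted p was 0.118. At an unadjusted p under 0.05 there were 1347 transcripts (4.99%), where 5% would pass without any effect. Without the shallow library, 0 of 26862 (0.00%) were called the unadjusted p was below 0.05 for 2966 (11.0%). The study's methods name DESeq2, which called 137 of 30068 transcripts with the same sign in both genotypes (0.456%), 35 higher (0.116%) and 102 lower (0.339%) on double diet. Without the shallow library it called 537 (1.81%), 138 higher (0.466%) and 399 lower (1.35%). Of the 137, 133 were also in that second list, which is 97.1% of the first list and 24.8% of the second. The test of a difference in the diet effect between the genotypes gave 59 calls of 29434 transcripts by DESeq2 and 0 by edgeR. The unadjusted edgeR p was below 0.05 for 1044 of 26970 transcripts, fewer than the 5% that would pass without any effect.

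The count of calls rested on which standard diet fish entered the fit. When standard diet fish B and C of both genotypes were left out, edgeR called 2473 of 28627 transcripts (8.64%), 1476 higher (5.16%) and 997 lower (3.48%) on double diet. When instead the other standard diet fish were left out, double diet fish were compared with B and C alone. There were then 0 calls by edgeR among 25190 transcripts. The unadjusted edgeR p was below 0.05 for 2529 of them (10%), against 8566 (29.9%) without B and C. DESeq2 called 4430 of 29039 transcripts without B and C, 2369 higher and 2061 lower on double diet. Against B and C alone, with the shallow library among them, it called 504 of 19906. Of these, 414 were higher and 90 lower, whereas with all 15 libraries more were lower (102) than higher (35). Fish B and C were known to stand apart from earlier results of these libraries, so the count without them is no independent measure of a diet effect. The sources used here do not say what the marks B and C stand for, and their part in the result was not tested.

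The diet effect was also estimated in each genotype as a contrast of its own, within a single fit with 1 coefficient per group. The 2 contrasts share no library but share the scaling and dispersion estimates of that fit. They had the same sign for 15372 of 26970 transcripts (57.0%). Of these, 5896 were higher and 9476 lower on double diet in both genotypes. Differences over 1 on the log2 scale in both genotypes were found for 353 transcripts in the higher and 1565 in the lower direction, together 7.11% of those tested. Differences of that size in opposite directions were found for 990 transcripts (3.67%). Across transcripts, which are not independent replicates, the correlation of the 2 estimates was r = 0.20 (n = 26970). Without the shallow library the same sign was found for 63.6%, 6511 higher and 10585 lower, with r = 0.35. Leaving out each library in turn, the share ran from 50.8% to 63.6%. Without standard diet fish B and C it was 75.3%, with 9661 higher and 11906 lower. Against B and C alone it was 56.6%, and the balance turned to 9012 higher and 5255 lower.

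**Figure D1:**
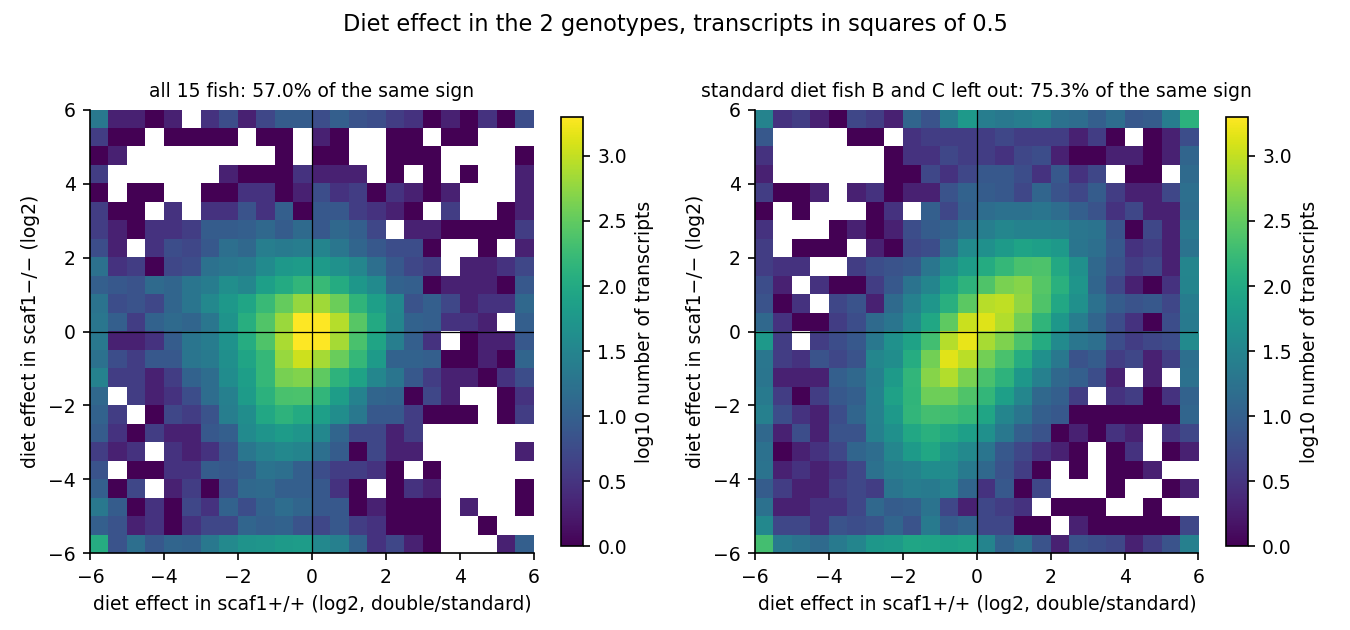
Number of transcripts by their diet effect in scaf1+/+ (x axis, log2 of double over standard diet) and in scaf1-/- muscle (y axis), as squares shaded by the log10 count, with all 15 libraries (left) and without standard diet fish B and C (right). The outermost squares also hold values beyond 6 in size. On the left more transcripts lie in the quadrant lower in both genotypes (9476) than higher in both (5896), and on the right 75.3% have the same sign against 57.0% on the left.

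Among transcripts with the same sign in both genotypes, the direction moved with abundance, in a way that turned with the standard diet fish used. With all 15 libraries, of those with a mean under 1 CPM (counts scaled to an equal library total), 24.5% were higher on double diet, and the median log2 difference of all 5732 transcripts in that class was -0.44 (-0.37 in scaf1+/+ and -0.56 in scaf1-/- muscle). Between 4 and 16 CPM, 44.0% were higher and the median was -0.04. Over 256 CPM, 70.4% were higher and the median of the 441 transcripts was 0.10 (0.07 and 0.19), although only 46.0% of that class had the same sign in both genotypes. The median over all transcripts was -0.10. With median-ratio scaling the median of all transcripts was -0.20, and that of the most abundant class was -0.07 in scaf1+/+ and 0.16 in scaf1-/- muscle, so its direction in scaf1+/+ muscle turned.

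The trend reversed against standard diet fish B and C alone, with the shallow library among them. There 66.7% of the same-sign transcripts under 1 CPM and 8.72% of those over 256 CPM were higher on double diet. The median of the scarcest class was then 0.18 (0.24 in scaf1+/+ and 0.37 in scaf1-/- muscle). In the most abundant class, the median without the shallow library was 0.42 (0.74 in scaf1+/+ and 0.18 in scaf1-/- muscle), and without standard diet fish B and C it was 1.22 (1.33 and 1.13). Against B and C alone it was -0.45 (-0.53 and -0.26). When the shallow library was left out of that last setting as well, fish B was the only scaf1+/+ standard diet fish. The median of the most abundant class was then -0.14, with 0.19 in scaf1+/+ and -0.27 in scaf1-/- muscle. That of the scarcest class was 0.12, with 0.00 in scaf1+/+ and 0.35 in scaf1-/- muscle. The reversal was thus not seen in scaf1+/+ muscle without the shallow library. The scaf1+/+ values rest on fish B.

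**Figure D2:**
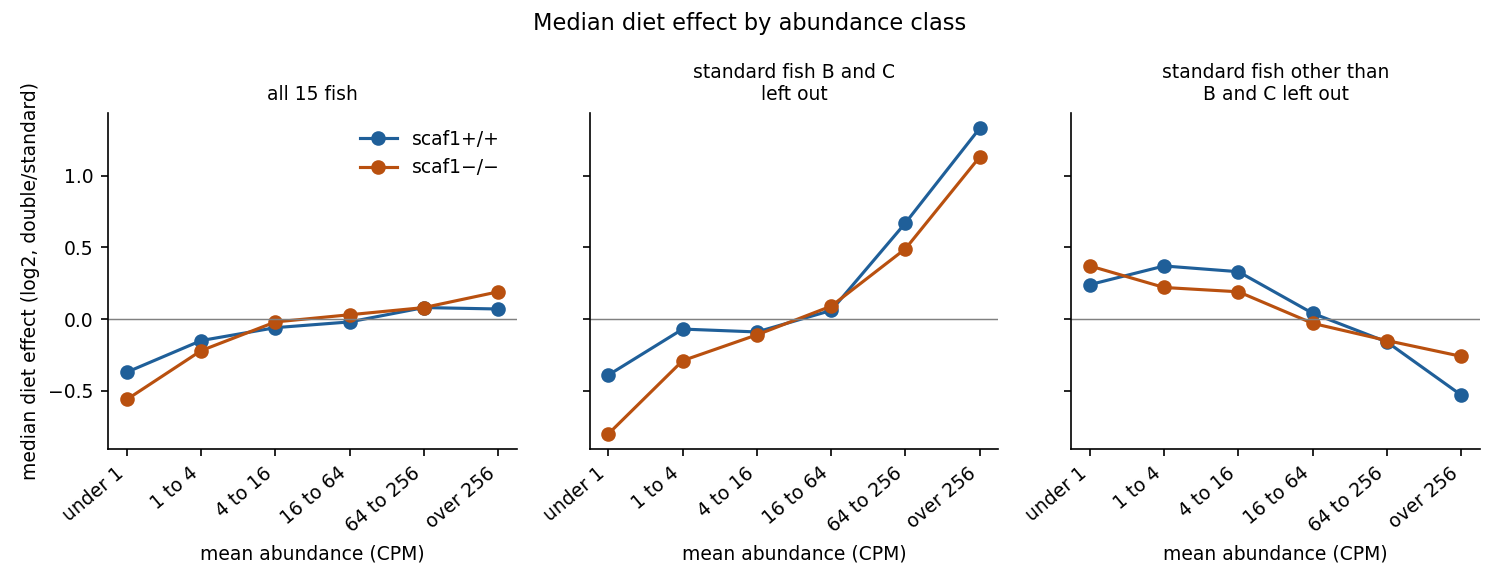
Median log2 difference, double over standard diet, in classes of mean CPM (x axis), with a line for each genotype and a panel for each choice of standard diet fish. The classes were cut anew for each panel. Over 256 CPM the points are at 0.07 (scaf1+/+) and 0.19 (scaf1-/-) with all 15 fish, at 1.33 and 1.13 without standard diet fish B and C, and at -0.53 and -0.26 against B and C alone. The last scaf1+/+ value, -0.53, includes the shallow library. It was 0.19 against fish B only, which is not drawn.

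Transcript length moved along with the direction of the difference. Of the same-sign transcripts, 58.3% of those up to 600 bases and 22.3% of those over 7000 bases were higher on double diet, and the median log2 differences of these classes were 0.08 and -0.23. In scaf1+/+ the medians were 0.08 and -0.20, and in scaf1-/- muscle 0.10 and -0.27. With median-ratio scaling they were 0.00 and -0.34 in all fish. The choice of standard diet fish moved these values. Without the shallow library the medians were 0.20 and -0.23. Without standard diet fish B and C they were 0.34 and -0.16, the scaf1+/+ median of the longest class was 0.00, and 42.8% of its same-sign transcripts were higher. Against B and C alone they were 0.01 and -0.14, with 43.9% of the longest class higher. The part of length in the results was not tested.

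The transcripts called by DESeq2 were close to all tested transcripts in abundance. The 35 higher transcripts had a median of 2.33 CPM and the 102 lower transcripts a median of 1.78 CPM, against 2.56 CPM over all 30068 transcripts tested. Their median lengths were 1570 and 2142.5 bases, against 2027 bases. Of the 102 lower transcripts, 26 (25.5%) had no count in any double diet fish, against 0.925% of all tested transcripts. No count in at least 1 standard diet fish was found for 77 of them (75.5%), against 58.7% of all tested, or for 48.0% against 34.5% when the shallow library was not counted. Of the 35 higher transcripts, 1 (2.86%) had no count in any standard diet fish, against 0.0865% of all tested, and 9 (25.7%) had none in at least 1 double diet fish, against 34.0%. These shares describe lists chosen by the same contrast and were not tested. The low-count filter of the edgeR test kept 34 of the 35 and 100 of the 102, and all of these had an unadjusted p under 0.05 but an adjusted p over 0.05.

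Detection of these lists differed among the standard diet fish. The 102 lower transcripts were detected most often in standard diet fish 6, 7 and A, with 98 and 100 of them in scaf1-/- fish 6 and A and 100 in each of scaf1+/+ fish 6 and 7. Standard diet fish B and C of scaf1-/- held 63 and 65, fish B of scaf1+/+ held 95 and its shallow fish C held 32, while double diet fish held 37 to 57. The 35 higher transcripts numbered 34 or 35 detected per fish in scaf1-/- double diet muscle and 30 to 35 in scaf1+/+ double diet muscle. In standard diet muscle 20 to 30 were detected, apart from 8 in the shallow library. Standard diet fish 6, 7 and A also detected the most transcripts in total, 34455 to 35800, against 27848 and 27748 in scaf1-/- fish B and C. Double diet fish detected 29270 to 33902, more than scaf1-/- fish B and C, but held fewer of the lower list. Both lists were chosen by the same contrast, and the part of total detection in these numbers was not tested.

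**Figure D3:**
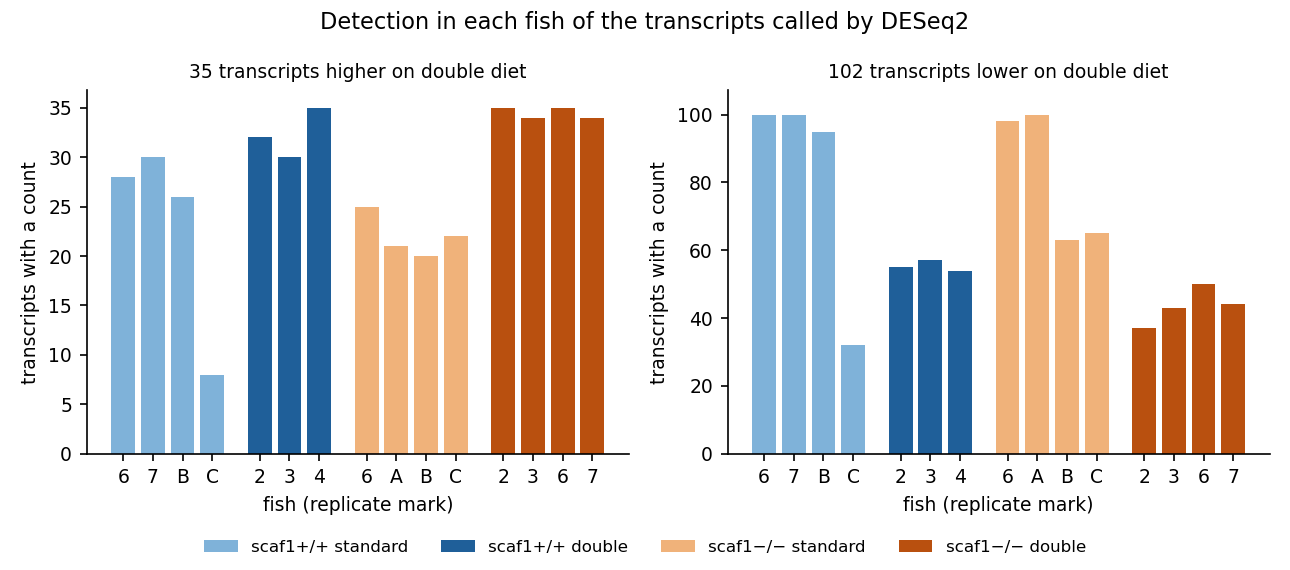
Number of the 35 higher and 102 lower transcripts called by DESeq2 that had a count in each fish, by group and fish mark. Double diet fish hold 30 to 35 of the higher list and 37 to 57 of the lower list, and standard diet fish 6, 7 and A hold 98 to 100 of the lower list. The fish also differ in the number of transcripts detected in total.

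A pair of transcripts in each direction shows the values behind these lists. They were taken from the DESeq2 list called with and without the shallow library, as the transcript with the smallest edgeR p and the one with the smallest p among those with a count in every fish, a choice made after their values were seen. What the transcripts encode is not given in the files.

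ENSDART00000163250.2, of 5638 bases, was nearly restricted to double diet muscle. In scaf1-/- double diet fish 2, 3, 6 and 7 it was at 8.48, 5.99, 1.70 and 10.31 CPM, and in scaf1-/- standard diet fish 6, A, B and C at 0.06, 0, 0 and 0.07 CPM. In scaf1+/+ double diet fish 2, 3 and 4 it was at 6.07, 0 and 0.49 CPM, and the 4 scaf1+/+ standard diet fish were all without a count. All 4 scaf1-/- double diet fish lay above all standard diet fish, while scaf1+/+ double diet fish 3 did not differ from the standard diet fish. The mean was 4.72 ± 4.04 CPM on double diet (SD, n = 7). In scaf1+/+ muscle double diet was at least 5.95-fold higher, against a floor of 3 counts per standard diet library, and at least 8.99-fold without standard diet fish C. The bound rested on double diet fish 2, without which the double diet mean was 0.246 CPM, under the floor of 0.368 CPM, so that no fold remained. The log2 difference was 7.58 by edgeR (adjusted p = 0.118) and 7.23 by DESeq2 (adjusted p = 3.16e-06). Without scaf1+/+ double diet fish 3 it was the sole transcript that edgeR called, at 7.75 (adjusted p = 0.00767).

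ENSDART00000136837.2, of 4225 bases, had counts in every fish. It was at 32.61, 19.24, 5.10 and 45.71 CPM in scaf1-/- double diet fish 2, 3, 6 and 7, and at 0.82, 1.33, 5.05 and 1.08 CPM in scaf1-/- standard diet fish 6, A, B and C. In scaf1+/+ muscle it was at 9.61, 3.85 and 21.58 CPM in double diet fish 2, 3 and 4, and at 0.33, 3.56, 2.57 and 0.74 CPM in standard diet fish 6, 7, B and C. In CPM by library total, every double diet fish lay above every standard diet fish within each genotype, by a small margin at the boundary. The scaling factors from the trimmed mean of M values were 1.088 for scaf1-/- double diet fish 6 and 0.6296 for scaf1-/- standard diet fish B. Dividing by them put fish B above fish 6, so the separation in scaf1-/- muscle did not hold with scaled values. The mean was 19.7 ± 15.4 CPM on double diet (SD, n = 7) and 1.94 ± 1.65 on standard diet (n = 8), which is 10.2-fold higher, 6.49-fold in scaf1+/+ and 12.4-fold in scaf1-/- fish. The scaf1+/+ fold was 3.74 without double diet fish 4, and the scaf1-/- fold was 23.9 without standard diet fish B. The log2 difference was 3.26 by edgeR, which did not pass (adjusted p = 0.652), and 3.20 by DESeq2 (adjusted p = 0.00384).

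ENSDART00000188017.1, of 848 bases, had almost no counts on double diet. It had no count in the 4 scaf1-/- double diet fish and was at 28.72, 13.13, 0 and 0 CPM in scaf1-/- standard diet fish 6, A, B and C. In scaf1+/+ double diet fish 2, 3 and 4 it was at 0, 0.23 and 0 CPM, and in standard diet fish 6, 7, B and C at 26.79, 21.05, 4.28 and 0 CPM. Standard diet fish 6, 7 and A were high, while scaf1-/- fish B and C and scaf1+/+ fish C had no count, like most double diet fish. In scaf1-/- muscle the level on double diet was at least 48.4-fold lower when each double diet library was set to a floor of 3 counts, and at least 20.3-fold without standard diet fish 6. The log2 difference was -7.55 by edgeR (adjusted p = 0.652) and -7.97 by DESeq2 (adjusted p = 0.00815), and DESeq2 gave it no adjusted p against standard diet fish B and C alone.

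ENSDART00000100103.5, of 2043 bases, was lower on double diet than in either set of standard diet fish. It was at 0.78, 0.75, 0.22 and 0.30 CPM in scaf1-/- double diet fish 2, 3, 6 and 7, and at 6.50, 5.48, 3.67 and 3.23 CPM in scaf1-/- standard diet fish 6, A, B and C. In scaf1+/+ muscle it was at 0.65, 1.77 and 0.77 CPM in double diet fish 2, 3 and 4, and at 5.42, 3.63, 5.06 and 1.24 CPM in standard diet fish 6, 7, B and C. In CPM by library total, the diets overlapped only through the shallow scaf1+/+ fish C, where 1.24 CPM stands for 5 counts. The scaling factors from the trimmed mean of M values were 0.5695 for that fish and 1.719 for scaf1+/+ standard diet fish 7. The factor of scaf1+/+ double diet fish 3 was 0.9336. Dividing each library by its factor put every standard diet fish above every double diet fish, so the overlap did not hold with scaled values. The mean was 0.748 ± 0.505 CPM on double diet (SD, n = 7) and 4.28 ± 1.67 on standard diet (n = 8), 5.72-fold lower, 3.61-fold in scaf1+/+ and 9.24-fold in scaf1-/- fish. The log2 difference was -2.23 by edgeR, which did not pass (adjusted p = 0.652), and -2.36 by DESeq2 (adjusted p = 4.6e-05).

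By DESeq2, 3 of these 4 transcripts were called both without standard diet fish B and C and against them alone. The 4 were picked from a DESeq2 list fitted on these same standard diet fish, and both settings use the same double diet fish. The p-values in these settings are therefore no independent test of diet. The log2 differences in these settings were 8.11 and 6.50 for ENSDART00000163250.2 (adjusted p = 1.05e-06 and 0.00388), and 4.28 and 2.66 for ENSDART00000136837.2 (adjusted p = 3.5e-06 and 0.0222). For ENSDART00000100103.5 they were -2.05 and -2.49 (adjusted p = 0.00437 and 0.00752). Over all alternatives the adjusted p ran from 1.05e-06 to 0.888 for the first, from 3.5e-06 to 1 for the second and from 4.6e-05 to 1 for ENSDART00000100103.5. For ENSDART00000188017.1 it ran from 1.48e-18 to 1. The sign of all 4 was the same under every alternative that gave a value. For ENSDART00000188017.1 edgeR gave no value against standard diet fish B and C alone, so its sign was not tested there by edgeR.

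**Figure D4:**
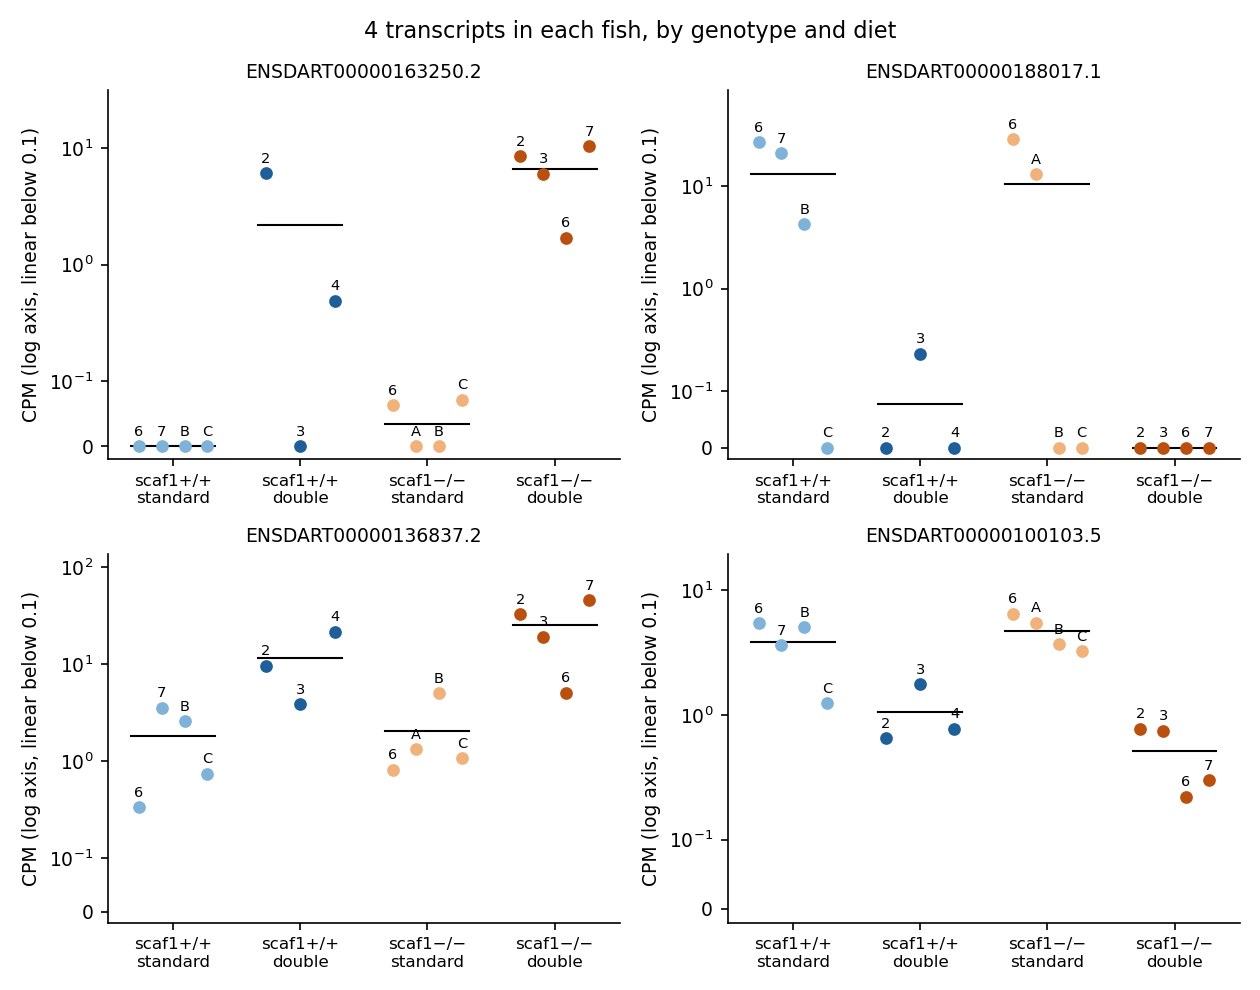
CPM (y axis, log scale, linear below 0.1) of the 4 transcripts in each of the 15 fish, by group, with fish marks at the points and a black line at each group's mean. In CPM by library total, the scaf1-/- double diet fish lie above the scaf1-/- standard diet fish for both higher transcripts. For ENSDART00000136837.2 this did not hold with scaled values. The scaf1-/- double diet fish lie below the scaf1-/- standard diet fish for ENSDART00000100103.5. ENSDART00000188017.1 is at 0 in standard diet fish B and C of scaf1-/- as in the double diet fish of that genotype.

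The same few fish were often the highest for the higher transcripts. Of the 12 higher transcripts taken from the DESeq2 list, the highest scaf1-/- fish was double diet fish 7 for 9, the highest scaf1+/+ fish was double diet fish 4 for 11, and both held for 8. Of these 12, 5 had a count in every fish and 7 had none in the shallow library. Of the 12 lower transcripts, 6 had no count in any scaf1-/- double diet fish, and 5 of these also had none in scaf1-/- standard diet fish B and C. Both lists were chosen by the same contrast, so the highest fish of a higher transcript was likely to be a double diet fish. The shallow library detected the fewest transcripts of all libraries (15655). None of these numbers was compared with all tested transcripts. The most abundant of the 12 higher transcripts, of 651 bases, was at 2080, 1980, 1183 and 1253 CPM in scaf1-/- double diet fish 2, 3, 6 and 7. It was at 337.8, 1155, 286.4 and 526.3 CPM in scaf1-/- standard diet fish 6, A, B and C. In scaf1+/+ muscle it was at 571.1, 1026 and 1251 CPM in double diet fish 2, 3 and 4, and at 445.9, 289.3, 372.4 and 266.2 CPM in standard diet fish 6, 7, B and C. In CPM by library total, no standard diet fish reached a double diet fish within either genotype. The scaling factors from the trimmed mean of M values were 0.5695 for scaf1+/+ standard diet fish C and 1.423 for scaf1+/+ double diet fish 2. Dividing by them put fish C above fish 2, so the separation in scaf1+/+ muscle did not hold with scaled values.

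Few transcripts separated all double diet from all standard diet fish. In CPM by library total, 13 of 26970 transcripts (0.0482%) were higher in every double diet fish than in any standard diet fish, and 2 (0.00742%) were lower in every double diet fish. The counts were 0 and 4 with CPM scaled by the trimmed mean of M values, so the direction of this set turned with the scaling. Without the shallow library they were 20 (0.0742%) and 33 (0.122%) by library total. By the scaled values they were then 2 (0.00742%) and 42 (0.156%). Of the 13, 2 shared length and counts and cannot be told apart. A transcript of 667 bases among the 13 was at 844.7 to 1404 CPM on double diet and 290.8 to 825.2 CPM on standard diet, 2.13-fold higher, with an edgeR adjusted p of 0.878.

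**Figure D5:**
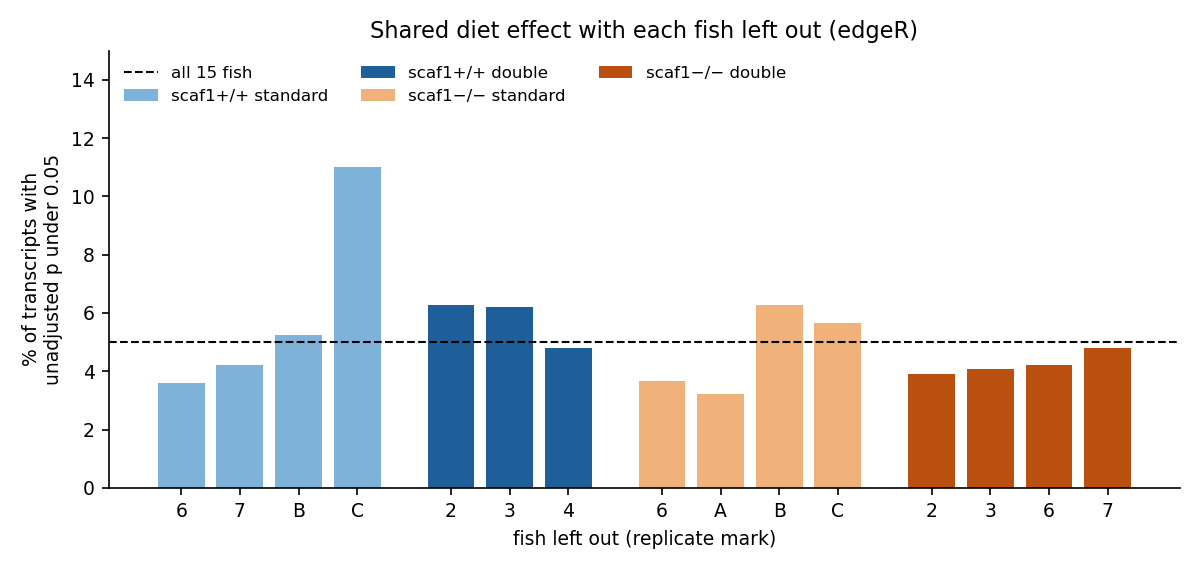
Percent of tested transcripts (y axis) with an unadjusted edgeR p under 0.05 when each of the 15 fish (x axis, by group) was left out in turn, with a dashed line at the 4.99% of all fish. The bars run from 3.21% without scaf1-/- standard diet fish A to 11.0% without scaf1+/+ standard diet fish C, where 845 and 2966 transcripts passed.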

How the data were processed

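Total RNA of skeletal muscle was sequenced on an Illumina HiSeq 2500. The authors pseudo-aligned reads to zebrafish cDNA (Ensembl release 94) with kallisto 0.45.0 after FastQC, and deposited estimated counts with transcript lengths per library, which hold no further normalization. The labels also name sleuth, and the methods name DESeq2 for testing. Totals ran from 4045333 to 15844496 counts, and the number of fish limits precision further.

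Here estimated counts were rounded. Transcripts were filtered with filterByExpr (smallest count 10, 4 groups), scaled with TMM, and tested with edgeR 4.0.16 (robust quasi-likelihood) in R 4.3.3 with genotype and diet as terms. Adjusted p-values are Benjamini-Hochberg over all transcripts tested. A call needed an adjusted p under 0.05, a log2 difference over 1 in size and the same sign in each genotype. For edgeR and limma the sign was taken from a fit with 1 coefficient per group. For DESeq2 it was that of the difference in mean normalized counts between the diets within each genotype, which a single high fish can set. DESeq2 1.42.0 and limma 3.58.1 were alternatives. Rules for floors used 3 counts. The fits were tested on simulated data. The comparison, lists and settings were chosen with earlier results of these data known. The rule for named transcripts took up to 12 per direction with a mean of at least 1 CPM, filled by the smallest p, plus up to 12 called by DESeq2 with and without scaf1+/+ standard diet fish C, and 2 of each direction are printed. The printed pairs were chosen after their values were seen, and an earlier choice, the 2 smallest p-values per direction, was replaced after its values were seen. Gene lists and cell type markers were not run, because 0% of the transcripts could be paired with a gene. Among 26970 tested transcripts, 218 share length and counts with another.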

Additional observations from a re-analysis of the deposited data

Results flagged for a closer look

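Dixon's test was applied to 19 groups of values, of which chance would flag about 1 in 20, and it picked out 3 values. The total of the library of scaf1-/- double diet fish 2 was 15453518 counts, above the 13359354 to 13540237 of the other 3 fish of its group. The library of scaf1+/+ standard diet fish C detected 15655 transcripts, far below the 33493 to 35766 of the other 3. ENSDART00000136837.2 was at 5.05 CPM in scaf1-/- standard diet fish B, above the 0.8205 to 1.329 CPM of the other 3 fish of that group. The range of the results without each of these fish is given under the dependence on processing.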

How the results depend on the processing

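The edgeR count of 0 shared calls stayed at 0 with median-ratio scaling, no filter, the mean of the diet effects, limma on log2(TPM + 1) or log2(TPM + 0.1), adjusted p alone and the share of the 100 most abundant transcripts as a covariate. Leaving out each fish in turn gave 0 to 1 calls, the 1 being ENSDART00000163250.2 without scaf1+/+ double diet fish 3. DESeq2 gave 137 calls, 131 with shrinkage and 537 without the shallow fish C. limma voom with library weights gave 980. The lowest weights were those of standard diet fish B and C, at 0.68 and 0.205 in scaf1+/+ and 0.53 and 0.549 in scaf1-/- muscle. All other fish had weights of 0.905 to 2.19. The part of the weights in this count was not tested. Leaving out standard diet fish B and C gave 2473, and marks B and C as a term gave 406. The diet coefficient of the latter fit compares double diet with the other standard diet fish. Its sign rule, however, used the diet effects against all standard diet fish, and 475 transcripts passed without that rule. The 406 and the 2473 are therefore not directly comparable. In settings chosen after seeing the data, DESeq2 gave 4430 without fish B and C and 504 without the other standard diet fish. In the latter setting edgeR gave 0. Why the tools differ was not tested.

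The difference between genotypes had 0 calls and 0 to 1 when each fish was left out, the 1 without the shallow library. DESeq2 gave 59, and, chosen after seeing the data, 73 without the shallow library and 87 without fish B and C. No count is given without the other standard diet fish and the shallow library, where fish B alone stood for scaf1+/+ standard diet. Of 26970 transcripts, those with no overlap numbered 15 by library totals and 4 with scaled values, and 53 and 44 without the shallow library. They numbered 3539 and 2374 without fish B and C, also chosen after seeing the data. By library totals 340 of the 3539 were higher (1.26% of those tested) and 3199 lower (11.9%). With scaled values 988 were higher (3.66%) and 1386 lower (5.14%). Fewer standard diet fish make a separation easier, so these counts cannot be compared across settings. Same-mark fish were correlated above 0.1 in their deviations in 5 of 8 pairs (r = -0.23 to 0.43). The same was not counted for fish with different marks, so this number has no comparison. The marks were not read as pairs, and the part of the marks in the result was not tested. The replicate block gave 0 calls. Only marks 6 and 7 occur on both diets, and no scaf1+/+ double diet fish has either mark. That fit therefore cannot decide on a diet effect shared by both genotypes. Summing transcripts to genes was not run. At 3 to 4 fish per group the depth of the shallow library limits scarce transcripts most.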
